A study of Mus musculus with 24 samples.

Results

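FOXP1 and TCF7L2 are DNA-binding transcriptional regulators (TRs) of the developing cortex. FOXP1 is a forkhead factor that mostly acts as a repressor and is known in cortex from progenitors and from neurons of several layers. TCF7L2 is a TCF/LEF factor with an HMG box, which recruits beta-catenin to DNA when Wnt signaling is on and co-repressors when it is off. Forkhead proteins and TCF/LEF proteins recognize different short DNA sequences, so peaks of the pair can be compared for where they meet, where they part, and what stands at each place.

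ChIP-seq of both TRs came from cortex of wild-type mice, kept on a CD1 background, at E15.5 (embryonic day), with 2 ChIP and 2 input libraries for each TR. Lists of both TRs from wild-type cortex at E18.5, and of ARID1B at both ages, each from as many libraries, served for comparison. The sample labels call the second target TCF4, whereas the methods and their list of antibodies name TCF7L2. TCF4 is also the name of an unrelated E-protein, so the name TCF7L2 is used throughout, and the cores of both proteins are given at the summits. Whole dissected cortex was used, so a peak can come from any of its cell types, and fewer cells with a factor bound cannot be told apart from less binding in each cell.

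The comparison took every peak on chromosomes 1 to 19 of the E15.5 lists, 63281 of FOXP1 and 32579 of TCF7L2, together 95860 of the 315145 peaks in the 6 lists of the series. Peaks were assigned by an overlap of at least 1 base. Of the FOXP1 peaks, 35594 (56.2%) had no TCF7L2 peak and 27687 (43.8%) had one. Of the TCF7L2 peaks, 2136 (6.56%) had no FOXP1 peak and 30443 (93.4%) had one. The overlapping peaks formed 26415 loci with both, and 22185 of these held a single peak of each TR.

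Each list is deposited with a single sample, and the methods describe calls on merged replicates, so the lists were taken as merged and no spread between replicates stands behind any value and no p-value is given. Intervals are 95% Wilson intervals for counting error alone, and peaks near each other share signal. Fold enrichment sets the reads under a summit against a constant background, as the authors' peak caller wrote it. The depths recovered from the lists were 64.5 M reads for the FOXP1 ChIP and 77.5 M for the TCF7L2 ChIP. The calls were scaled to the smaller library, 64.5 M for FOXP1 and 60.1 M for TCF7L2, with backgrounds of 6.90 and 6.43 reads. The lowest peak had a fold enrichment of 2.40 in the FOXP1 list and 2.64 in the TCF7L2 list.

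The class sizes depend on the length of the lists. When the FOXP1 list was cut to the 32579 peaks of lowest p, 9964 FOXP1 peaks had no TCF7L2 peak and 6407 TCF7L2 peaks had no FOXP1 peak. A peak of -log10 p of at least 15 with no peak of the other TR at any height was found 5211 times for FOXP1 and 53 times for TCF7L2. Few peaks lay at the edge of the 1-base rule on the shared side, where 347 FOXP1 peaks (1.25%) and 236 TCF7L2 peaks (0.775%) overlapped by fewer than 50 bases. On the other side, 1682 FOXP1 peaks without TCF7L2 (4.73%) and 554 TCF7L2 peaks without FOXP1 (25.9%) had a peak of the other TR within 200 bp.

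Windows of 200 bp around a summit are shown as examples, and each was chosen because it held a searched core. They are read from the plus strand of GRCm38 and given 5' to 3', with the searched core in capitals. The forkhead core was TGTTTAC, the TCF/LEF core ATCAAAG and the ETS core, the site of another family of promoter-binding factors, CCGGAAG. Each was searched on both strands, so that GTAAACA and CTTTGAT mark a core on the minus strand, and no core contains another. The forkhead core was in 3.46% of windows of FOXP1 peaks without TCF7L2. The TCF/LEF core was in 4.07% of windows of TCF7L2 peaks without FOXP1. The first 2 windows are FOXP1 peaks without TCF7L2, an intron of Cacng4, which encodes a subunit that regulates AMPA receptors, at chr11:107784286-107784485, and intergenic DNA nearest to Tmem200a at chr10:26139484-26139683.
Cacng4: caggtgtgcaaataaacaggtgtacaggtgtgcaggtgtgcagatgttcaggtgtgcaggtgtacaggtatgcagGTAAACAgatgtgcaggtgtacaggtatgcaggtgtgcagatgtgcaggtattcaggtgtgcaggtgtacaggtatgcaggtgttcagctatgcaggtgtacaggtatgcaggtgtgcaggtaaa
Tmem200a: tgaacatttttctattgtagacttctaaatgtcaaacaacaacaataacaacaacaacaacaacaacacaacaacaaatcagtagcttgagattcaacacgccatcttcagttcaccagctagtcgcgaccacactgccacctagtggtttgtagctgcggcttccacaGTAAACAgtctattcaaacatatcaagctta
Windows of TCF7L2 peaks without FOXP1 lay in a coding exon of Syne1, a gene for a nuclear envelope spectrin-repeat protein, at chr10:4997818-4998017, and in an intron of Pax3, a gene of the dorsal neural tube and neural crest, at chr1:78168033-78168232.
Syne1: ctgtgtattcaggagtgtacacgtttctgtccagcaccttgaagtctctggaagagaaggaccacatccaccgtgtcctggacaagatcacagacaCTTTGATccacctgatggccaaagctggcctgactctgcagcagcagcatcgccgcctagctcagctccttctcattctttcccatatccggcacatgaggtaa
Pax3: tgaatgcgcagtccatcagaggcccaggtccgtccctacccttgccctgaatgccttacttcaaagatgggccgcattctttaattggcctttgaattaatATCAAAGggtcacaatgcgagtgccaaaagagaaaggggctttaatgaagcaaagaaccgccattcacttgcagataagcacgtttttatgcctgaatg
Windows of loci with both at which TCF7L2 ranked far higher lay in an intron of Wnt10a, a Wnt ligand gene, at chr1:74797569-74797768, and in intergenic DNA nearest to Jag1, a Notch ligand gene, at chr2:137244038-137244237.
Wnt10a: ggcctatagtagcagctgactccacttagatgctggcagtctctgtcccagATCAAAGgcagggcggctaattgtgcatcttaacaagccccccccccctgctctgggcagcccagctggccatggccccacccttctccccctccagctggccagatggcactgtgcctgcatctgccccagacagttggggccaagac
Jag1: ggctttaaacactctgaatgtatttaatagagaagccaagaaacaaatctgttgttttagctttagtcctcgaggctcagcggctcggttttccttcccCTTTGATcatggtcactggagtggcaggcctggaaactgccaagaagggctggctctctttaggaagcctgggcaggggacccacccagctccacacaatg
The promoter of Tcf7, itself a TCF/LEF gene, carried a core under its TCF7L2 summit at chr11:52283325-52283524, and the promoter of Utp3, a gene of ribosomal RNA processing, carried 2 ETS cores under a very high FOXP1 summit at chr5:88554198-88554397.
Tcf7: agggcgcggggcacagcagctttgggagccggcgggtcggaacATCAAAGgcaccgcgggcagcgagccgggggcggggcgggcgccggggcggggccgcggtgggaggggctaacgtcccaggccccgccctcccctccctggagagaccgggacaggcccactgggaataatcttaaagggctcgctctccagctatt
Utp3: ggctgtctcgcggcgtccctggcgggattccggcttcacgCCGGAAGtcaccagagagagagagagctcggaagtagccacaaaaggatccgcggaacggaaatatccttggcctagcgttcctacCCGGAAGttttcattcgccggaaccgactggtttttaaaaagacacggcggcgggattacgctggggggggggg

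The classes differed in height, and the tallest peaks of both lists were shared. Peaks without the other TR were low and narrow, with a median fold enrichment of 3.54 for FOXP1 alone against 6.20 for FOXP1 with TCF7L2, and of 3.37 for TCF7L2 alone against 4.41 for TCF7L2 with FOXP1. Median widths were 317, 885, 265, and 552 bp in the same order. Of FOXP1 peaks below a fold of 3, 10.4% (95% CI 9.64 to 11.3, n = 5182) had a TCF7L2 peak, and this share rose through 17.4%, 47.0%, and 87.8% to 99.7% of the 7092 peaks at a fold of 10 or more. For TCF7L2 the share with FOXP1 began at 74.1% of 802 peaks and reached all 744 peaks at 10 or more. A share of peaks that meet the other list therefore has to be read at matched height.

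**Figure D1:**
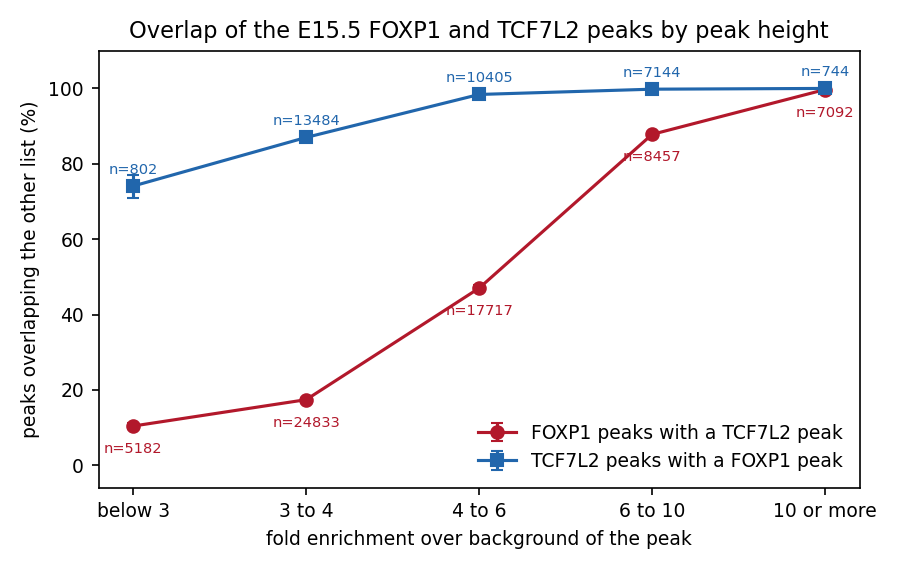
The share of E15.5 FOXP1 peaks (red circles) and TCF7L2 peaks (blue squares) that overlap a peak of the other list by at least 1 base is plotted in percent against the fold enrichment of the peak, with 95% Wilson intervals and the number of peaks beside each point. FOXP1 peaks go from 10.4% to 99.7% and TCF7L2 peaks from 74.1% to 100%.

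FOXP1 peaks without TCF7L2 were mostly far from promoters. Only peaks that overlapped the 2000 bp upstream of a transcription start site (TSS) counted as proximal, and they made up 13.2% of FOXP1 peaks without TCF7L2 (95% CI 12.8 to 13.5), 26.9% of TCF7L2 peaks without FOXP1 (25 to 28.8) and 53.2% of the loci with both (52.6 to 53.8). At a fold of 4 to 6 the same contrast stood within FOXP1, with 10.9% of 9394 peaks without TCF7L2 and 30.5% of 8323 peaks with it proximal. The median distance from the summit to the nearest protein-coding TSS was 35028 bp for FOXP1 alone, 6556 bp for TCF7L2 alone, 2274 bp for FOXP1 with TCF7L2, and 1596 bp for TCF7L2 with FOXP1. Summits more than 100 kb away made up 27.2% of FOXP1 peaks without TCF7L2 and 11.3% of TCF7L2 peaks without FOXP1. When only peaks of -log10 p of at least 15 were kept in both lists, the proximal shares of the single classes were 25.5% (24.7 to 26.2) and 28.9% (24.7 to 33.5), whose intervals overlap.

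Summits of TCF7L2 peaks without FOXP1 lay in coding exons more often than summits of any other class. The shares were 6.18% (95% CI 5.24 to 7.28) of TCF7L2 peaks without FOXP1, 1.85% (1.71 to 1.99) of FOXP1 peaks without TCF7L2, 3.95% of FOXP1 peaks with TCF7L2, and 4.46% of TCF7L2 peaks with FOXP1. Intergenic summits made up 36.0% of FOXP1 peaks without TCF7L2, 21.4% of TCF7L2 peaks without FOXP1, 19.8% of FOXP1 peaks with TCF7L2, and 18.9% of TCF7L2 peaks with FOXP1. Introns held the most summits of both single classes, 46.2% and 40.9%. The base composition moved with these places: the median GC content of the summit windows was 47.5% for FOXP1 alone, 54.0% for TCF7L2 alone, and 58.5% and 59.0% for the shared peaks. The part of base composition and read depth in the class differences was not tested.

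**Figure D2:**
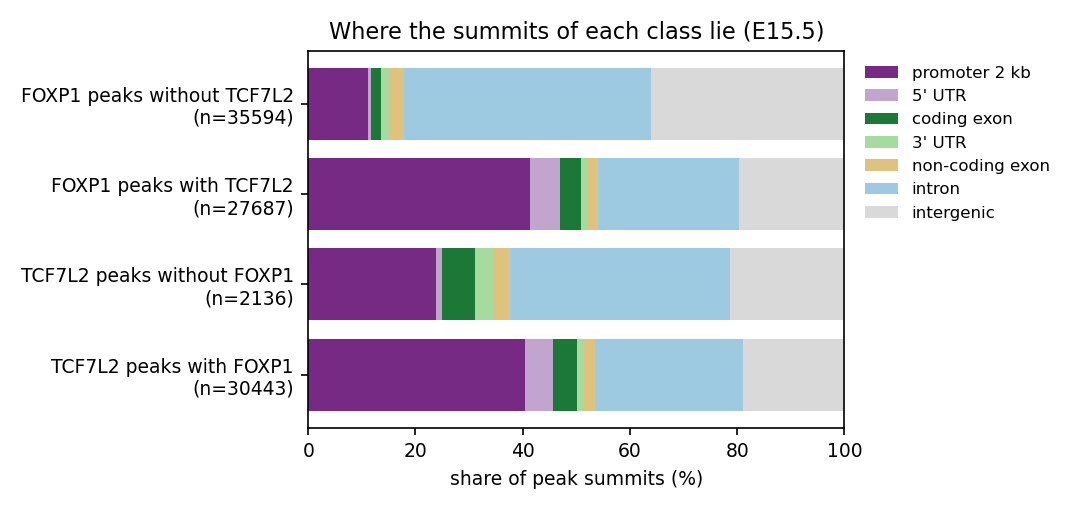
Stacked bars give the share of peak summits in percent that lie in promoters, untranslated regions, coding exons, other exons, introns, and intergenic DNA, for FOXP1 and TCF7L2 peaks with and without a peak of the other TR. Promoters take 11.2% of summits of FOXP1 without TCF7L2, 23.8% of TCF7L2 without FOXP1, and 41.3% and 40.5% of the shared peaks.

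Lists that played no part in the class assignment met the single classes to different extents. At E18.5, 74.7% (95% CI 72.8 to 76.5) of the TCF7L2 peaks without FOXP1 had a TCF7L2 peak and 0.983% (0.644 to 1.5) had a FOXP1 peak, against 96.4% and 62.7% of the TCF7L2 peaks with FOXP1. By height, the TCF7L2 share of the peaks without FOXP1 was 58.7% below a fold of 3, 74.4% at 3 to 4, and 95.8% at 4 to 6. For the peaks with FOXP1 it was 81.3%, 92.0%, and 99.6%. The FOXP1 share in these bins was 0%, 1.09%, and 1.21% without FOXP1, against 18.2%, 34.7%, and 71.7% with it. FOXP1 peaks without TCF7L2 had a FOXP1 peak at E18.5 in 11.6% of cases (11.2 to 11.9) and a TCF7L2 peak in 33.9% (33.4 to 34.4), against 63.0% and 96.5% of the FOXP1 peaks with TCF7L2. The E18.5 lists are of unequal depth, with 24526 FOXP1 peaks on these chromosomes scaled to 26.3 M reads and 52595 TCF7L2 peaks scaled to 76.1 M. The E18.5 FOXP1 share of FOXP1 peaks without TCF7L2 rose with height. It was 1.79% below a fold of 3, 25.4% at 4 to 6, and 65.0% at 6 to 10. For FOXP1 peaks with TCF7L2 it was 2.40%, 41.6%, and 87.7% in these bins. The E18.5 TCF7L2 share of FOXP1 peaks without TCF7L2 was 23.7%, 45.0%, and 62.4%. It was above the FOXP1 share in the first pair of bins and near it in the last. For FOXP1 peaks with TCF7L2 it was 82.8%, 95.9%, and 99.3%.

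ARID1B, which belongs to the BAF remodeler of chromatin, met the shared peaks most and TCF7L2 peaks without FOXP1 least. Its E15.5 list overlapped 95% of the loci with both, 61.4% (95% CI 60.9 to 61.9) of FOXP1 peaks without TCF7L2, and 39.6% (37.6 to 41.7) of TCF7L2 peaks without FOXP1. At a fold of 4 to 6 these shares were 72.4% of 9394 FOXP1 peaks and 50.9% of 165 TCF7L2 peaks, against 94.1% and 97.5% of the shared FOXP1 and TCF7L2 peaks. No peak of any of the other 4 lists lay at 23.1% of FOXP1 peaks without TCF7L2, 16.6% of TCF7L2 peaks without FOXP1, and 0.701% of FOXP1 peaks with TCF7L2.

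The highest FOXP1 peaks without TCF7L2 were few, and of the 10 highest 5 were intergenic, 4 lay in introns, and 1 in a promoter. Only 18 reached a fold of 10, and 88.9% of these had a FOXP1 peak at E18.5. The highest, the Cacng4 intron shown above, lay 10171 bp downstream of the TSS and had a fold enrichment of 38.7, with 39.9 for FOXP1 at E18.5 and 4.38 for TCF7L2 at E18.5. The window printed above runs through variants of a short repeated unit, although the reference masks only 9.50% of it as repeat. A second Cacng4 peak had 17.0, with 18.4 for FOXP1 at E18.5 and no TCF7L2 peak at either stage.

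The other FOXP1 peaks of this top group are named by their nearest protein-coding gene, which was often far away. The Tmem200a window had a FOXP1 fold of 11.8 at E15.5 and, later, 19.2 at E18.5, with no TCF7L2 and no ARID1B peak. An intergenic peak 1055538 bp from Slitrk1, a gene of a neuronal transmembrane protein of neurite growth, went from 12.8 to 30.7, but its window was 89.0% repeat. An intron of Acvr1b, an activin receptor gene, had 14.3 and 15.4. The Taf1b promoter, of a gene for an RNA polymerase I factor, had 15.3 and 5.27, and the summit lay 107 bp from the TSS. A peak 211254 bp from Slc15a4 had 19.7 and no peak in any of the other lists, and peaks nearest to Snrpn, Epha5, and Fat3 had 15.1, 12, and 12 with E18.5 values of 4.82, 4.53, and 6.0. FOXP1 had a peak at E18.5 at 9 of the 10 highest peaks, all but the one nearest to Slc15a4.

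TCF7L2 peaks without FOXP1 were lower, and 10 of the 10 highest had a TCF7L2 peak and no FOXP1 peak at E18.5. The highest, 9.84 at E15.5 and, later, 7.01 at E18.5, lay 26034 bp from Vmn1r77, a vomeronasal receptor gene, and its window was 73.5% repeat. The Syne1 coding exon had 8.49 and 8.76, without ARID1B at either stage. Pax5, a paired-box factor gene of B cells and midbrain, had 7.02 and 6.46 at 2451 bp from its TSS, and the Pax3 intron had 6.19 and 5.91. A promoter summit nearest to the protein-coding gene Psmb4, 22710 bp away, had 7.34 and 5.47. Peaks nearest to Pgbd5, Otud7a, and Fam49a lay between 6.61 and 7.13, and a coding exon of Khdc3, an oocyte gene, had 6.92 and 7.66. TCF/LEF cores stood in the windows of Syne1 and Pax3, 2 of the 10, and forkhead cores in the Cacng4 and Tmem200a windows, 2 of the 10 on the FOXP1 side.

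Of the 44145 distal FOXP1 peaks, 30904 had no TCF7L2 peak, and the 5 genes nearest to the largest numbers of these are named here. Celf2, an RNA-binding protein gene, was nearest to 86 of them, the E-protein gene Tcf4 to 78, Auts2 to 72, Zfp608 to 70, and Nfib, a nuclear factor I gene, to 65. All distal FOXP1 peaks nearest to these genes numbered 99 at Celf2, 112 at Auts2, and 94 at Nfib, and the median fold of the single-class peaks was 3.16 to 3.54. The TCF7L2 peaks without FOXP1 were nearest to Glp1r (15 of 23 distal TCF7L2 peaks), Ccdc192 (13 of 17), Dnah8 (12 of 28), Pax3 (11 of 13), and Gse1 (10 of 85). Over all 16580 distal TCF7L2 peaks, 90.6% had a FOXP1 peak. Single-class peaks of FOXP1 had 9718 nearest genes and those of TCF7L2 had 1452, where there are 20807 autosomal protein-coding genes. The 1197 genes in common were 12.3% of the first and 82.4% of the second. The overlap expected from these numbers alone was not computed.

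Promoters of protein-coding genes were rarely bound by a single TR. Of 20807 autosomal genes, 12201 (58.6%) had a peak of both within 2000 bp upstream of a TSS, 982 (4.72%) had FOXP1 alone, 102 (0.490%) had TCF7L2 alone, and 7522 (36.2%) had neither. With a -log10 p of at least 15 in both lists 2128 and 57 genes had FOXP1 or TCF7L2 alone, and with that limit on the named list only 264 and 4. Single-TR promoters had low peaks, with a median fold of 3.8 for FOXP1 and 3.47 for TCF7L2, against 11.3 and 6.50 where both were present. In 806 of the 982 genes (82.1%) and 76 of the 102 (74.5%) the promoter peaks touched no peak of the other TR at all, and in the rest the other TR's peak lay just outside the promoter window.

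Promoters with FOXP1 alone at E15.5 had TCF7L2 at E18.5 about as often as all genes did and had FOXP1 less often. Of the 20807 genes, 63.0% had TCF7L2 and 56.7% had FOXP1 at E18.5. Of the 982 genes, 63.7% (95% CI 60.7 to 66.7) had a TCF7L2 promoter peak at E18.5 and 31.6% (28.7 to 34.5) a FOXP1 peak. Of the 102 genes with TCF7L2 alone, 76.5% (67.4 to 83.6) had TCF7L2 at E18.5 and 4.90% (2.11 to 11) FOXP1. Over all genes at E18.5, TCF7L2 without FOXP1 was found at 6.76% and FOXP1 without TCF7L2 at 0.461%, the reverse order of E15.5. The longer list was that of FOXP1 at E15.5 and that of TCF7L2 at E18.5, and with E15.5 lists of equal length 416 genes had FOXP1 alone and 474 had TCF7L2 alone, so the E15.5 order itself turned.

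Striatal neuron genes held the most promoters with FOXP1 alone among the 19 lists. Of 15 striatal projection neuron genes, 4 had a FOXP1 promoter peak alone, 9 had both, and 2 had neither, where 4.72% of all genes had FOXP1 alone. The 4 were Drd2 and Adora2a, the receptors for dopamine and adenosine of indirect-pathway neurons, Ikzf1, a zinc finger factor gene, and Rxrg, a retinoid receptor gene, with FOXP1 folds of 3.29, 5.44, 3.42, and 5.57. Adora2a and Rxrg both had a FOXP1 peak of 4.97 at E18.5, and by then TCF7L2 was called at Adora2a, Ikzf1, and Rxrg with 3.39, 3.72, and 3.28. The lowest TCF7L2 peak of the E15.5 list stood at 2.64, and a lower TCF7L2 signal at these promoters was not measured.

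Among ion channel and transmitter receptor genes, 25 of 29 had both TRs, and Scn3a, a sodium channel gene, and Htr1a, a serotonin receptor gene, had FOXP1 alone with 4.81 and 4.05. The proneural gene Neurod4 had FOXP1 alone with 3.54 at E15.5 and, later, 6.30 at E18.5. The endothelial and mural genes Cdh5, Fli1, and Pdgfrb had FOXP1 alone with 2.91, 3.42, and 3.54, and Sox17 had TCF7L2 alone with 3.27. Npas1 of the interneuron lineage had TCF7L2 alone with 3.16, and Sox14, C1qc, Myh7, Actn2, and Pga5 had FOXP1 alone with 3.04 to 6.33.

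The share of genes with both TRs differed among the lists. Both were present at all 20 radial glia genes, 15 of 15 upper-layer genes, 14 of 15 deep-layer and subplate genes, 14 of 15 genes of intermediate progenitors, 27 of 27 cell cycle genes, 32 of 32 axon guidance genes, and 25 of 26 BAF subunit genes. Both TRs were at 27 of 30 Wnt pathway genes, 18 of 19 Wnt targets, 13 of 17 interneuron genes, 13 of 15 thalamic and midbrain genes, and 5 of 9 oligodendrocyte genes. Both TRs were at 7 of 18 endothelial and mural genes, 3 of 14 microglia genes, and 2 of 25 genes of other organs, where 58.6% of all genes had both.

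At promoters with both, the share of genes that ranked far higher for TCF7L2 differed among the lists. Here each gene took its highest promoter peak of each TR, both were ranked among the 12201 genes, and the difference is the FOXP1 percentile minus the TCF7L2 percentile. Over all genes the median difference was -1.16 points, and TCF7L2 was at least 25 points higher at 8.96% and FOXP1 at 9.91%. Of 18 Wnt target and feedback genes with both, TCF7L2 was at least 25 points higher at 7 and FOXP1 at 1, with a median of -17.8. Of 20 radial glia genes the numbers were 10 and 1, with a median of -24.8, and of 15 upper-layer genes 6 and 0, with a median of -17.4. Of 27 genes of Wnt ligands, receptors, and signal transduction the numbers were 7 and 2, with a median of -9.69. Axon guidance genes had 7 and 2 of 32, deep-layer genes 3 and 2 of 14, intermediate progenitor genes 2 and 0 of 14 with a median of -8.38, interneuron genes 3 and 0 of 13, BAF genes 3 and 1 of 25, striatal genes 2 and 0 of 9, and thalamic and oligodendrocyte genes none of 13 and none of 5. Ion channel genes had 2 and 3 of 25, with a median of 0.705, and cell cycle genes 7 and 2 of 27, with a median of 0.570.

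Several feedback genes of the Wnt pathway, named after their values were seen, differed by more than 50 points toward TCF7L2. Axin2, a negative regulator that is induced by the pathway, had a fold of 9.11 for FOXP1 and 32.2 for TCF7L2 at E15.5, then 8.21 and 37.5 at E18.5. Tnfrsf19 had 7.97 and 16.7, and at the later stage 6.0 and 16.9. Znrf3, a ubiquitin ligase that removes Wnt receptors, had 8.73 and 14.0, and then 6.30 and 15. Sp5, a zinc finger factor and a direct Wnt target, had 3.92 and 10.5, and at E18.5 no FOXP1 peak and 10.8 for TCF7L2. The differences in rank were -67.5, -75.3, -69.8, and -93.1 points, and TCF7L2 had the higher fold at both stages in all 4. Ccnd1, a cyclin gene, followed with -52.7, 6.08 against 7.34. TCF7L2 ranked higher at 14 of the 18 Wnt targets (77.8%), where it did so at 52.9% of all genes with both. The share was 92.9% of intermediate progenitor genes, 90.0% of radial glia genes, 48.1% of cell cycle genes, and 48.0% of ion channel genes. Kremen1, a Dkk co-receptor gene, was the 1 Wnt target at which FOXP1 was at least 25 points higher. It had 14.6 against 5.88 and 40.7 points.

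The 4 TCF/LEF genes all ranked at least 25 points higher for TCF7L2, as did 4 genes of the interneuron and radial glia lists that were named after their values were seen. Sp8 and Sp9, listed as interneuron genes, had 4.68 against 9.74 and 5.32 against 11.4 at E15.5, and neither had a FOXP1 peak at E18.5, when TCF7L2 stood at 7.12 and 10.6. The Notch target genes Hes1 and Hes5 had 7.59 against 9.32 and 8.86 against 9.84. Among the TCF/LEF genes, Tcf7 had 6.20 for FOXP1 and 8.49 for TCF7L2, Lef1 6.20 and 7.02, Tcf7l1 6.20 and 6.19, and Tcf7l2 7.34 and 6.50. Their rank differences were -68.4, -46.4, -29.9, and -29.6. Over the whole loci with 10 kb on either side, the highest peaks of FOXP1 and TCF7L2 were 6.20 and 8.49 at Tcf7, 7.21 and 24.4 at Lef1, 17.5 and 6.4 at Tcf7l1, and 13.4 and 8.69 at Tcf7l2, so FOXP1 had the higher peak at the last pair.

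The Foxp genes carried both TRs, and none of the 3 differed by 25 points. Foxp1 had 14.9 and 9.84, Foxp2 13.0 and 9.11, and Foxp4 12.3 and 7.02, with differences of -12.3, -22.3, and -0.988 points. FOXP1 peaks without TCF7L2 were 21 of 27 in and around Foxp1, 10 of 17 at Foxp2, and 5 of 17 at Foxp4, where 56.2% of all FOXP1 peaks had none. TCF7L2 peaks without FOXP1 were 2 of 10, 1 of 8, and 1 of 13, where 6.56% of all had none.

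The strongest leans to FOXP1 among the listed genes, also named after their values were seen, lay at Scn2a, Bcl11b, and Tbr1. Their differences were 80.3, 74.4, and 45.4 points. Lrp6 of the Wnt pathway followed with 43.0, and Kremen1 and the BAF gene Pbrm1 with 40.7 each. The deep-layer list that holds Bcl11b and Tbr1 went the other way, with a median of -13.9 points. In it TCF7L2 ranked higher at 10 of 14 genes. Scn2a, a sodium channel gene of excitatory neurons, had 50.6 for FOXP1, the highest autosomal value of the list, and 4.83 for TCF7L2 at E15.5, then 21.7 and 6.02 at E18.5. Bcl11b, a deep-layer factor gene, had 29.0 and 5.04, and 5.71 and 6.57 at E18.5. Tbr1, another deep-layer factor gene, had 13.9 and 5.35, and 3.94 and 6.13 at E18.5. FOXP1 thus had the higher fold at E15.5 at all 3 genes and at E18.5 at Scn2a alone. The Wnt pathway genes Lrp6 and Dvl2 had 20 against 6.61 and 30 against 7.65, and FOXP1 stayed higher at E18.5 with 14.4 against 7.77 and 27.3 against 10.2.

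Across the 26415 loci with both, the heights of the pair rose together. Spearman's rho of the fold enrichments was 0.798 over all loci, 0.821 over 14046 proximal and 0.530 over 12369 distal loci, as a description, since loci share libraries and local chromatin. The FOXP1 fold was the higher one at 86.6% of loci, with a median ratio of 1.41, a value that carries the antibodies and depths. The median distance between the summits was 79.0 bp, and 58.7% lay within 100 bp. FOXP1 ranked at least 50 percentile points higher at 137 loci (0.519%) and TCF7L2 at 199 (0.753%).

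**Figure D3:**
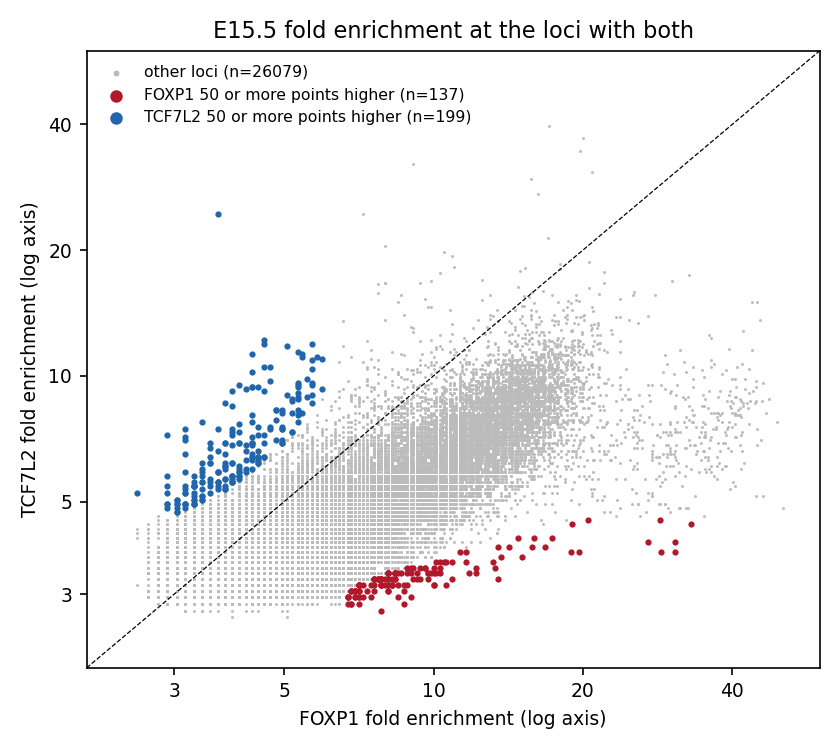
Each point is 1 of the 26415 loci with both, with the highest FOXP1 fold enrichment on the x axis and the highest TCF7L2 fold enrichment on the y axis, both on log axes, and the dashed line marks equal folds. The 137 loci in red rank at least 50 points higher for FOXP1, the 199 in blue rank at least 50 points higher for TCF7L2, and 86.6% of loci lie below the line.

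The unequal loci kept their direction at E18.5, in libraries that the ranking did not use. Of the 137 loci that leaned to FOXP1, 123 had both TRs at E18.5 and FOXP1 ranked higher at 115 of them (93.5%), with a median difference of 27.4 points. Of the 199 that leaned to TCF7L2, 42 had both at E18.5 and TCF7L2 ranked higher at 41 (97.6%), with a median of -45.5. Over all 17142 loci with both at both stages, FOXP1 ranked higher at 51.8% and TCF7L2 at 48.2%. All of the 199 had a TCF7L2 peak at E18.5 and 21.1% had a FOXP1 peak, against 98.5% and 91.2% of the 137. Over all 26415 loci with both, these shares were 97% and 65.4%. The median FOXP1 fold at E15.5 was 3.92 at the 199 loci and 8.35 at the 137. Among all FOXP1 peaks with TCF7L2, the E18.5 FOXP1 share was 8.90% at a fold of 3 to 4 and 87.7% at 6 to 10. The part of FOXP1 height in the E18.5 shares was not tested. Between the 199 and the 137 the median E18.5 rank difference moved in order. It was -27.5 at E15.5 differences of -50 to -25, then -6.08 and 6.15, and 15.1 at 25 to 50.

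**Figure D4:**
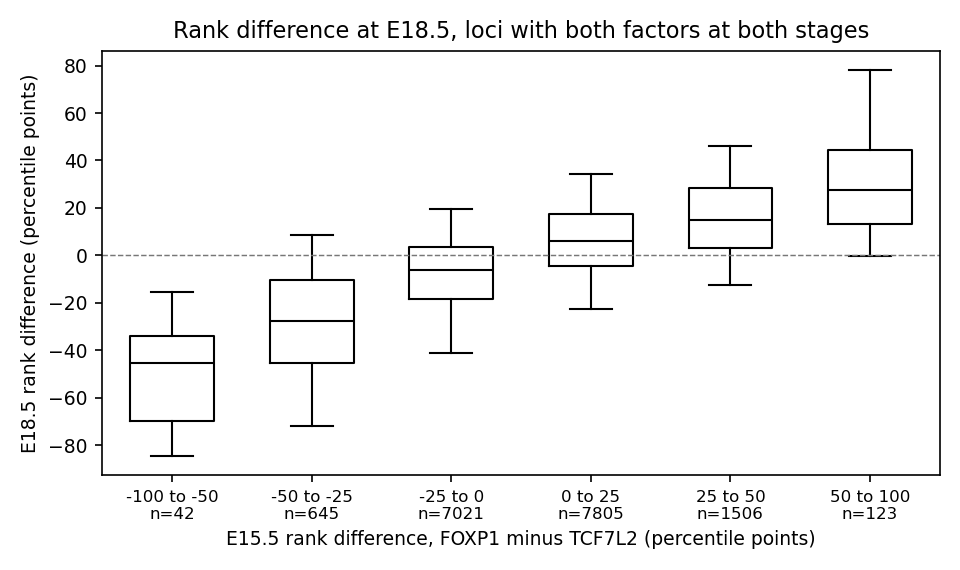
Boxes give the E18.5 rank difference (FOXP1 minus TCF7L2, percentile points) of loci with both TRs at both stages, in 6 bins of the E15.5 rank difference. Lines mark medians, boxes quartiles, and whiskers the 5th and 95th percentiles. The medians go from -45.5 in the lowest bin to 27.4 in the highest.

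Loci that leaned to TCF7L2 were led by the Hspa1l promoter, beside the inducible heat shock genes, with 24.4 for TCF7L2 and 3.67 for FOXP1 at E15.5, then 23.1 and no FOXP1 peak at E18.5. The Wnt10a intron had 7.23 and 2.91, and 8.76 and no FOXP1 peak at E18.5. The Jag1 locus, 127494 bp upstream, had 9.53 and 4.05, and 9.20 without FOXP1 at E18.5. A coding exon of Nr4a2, a nuclear receptor gene of subplate and dopamine neurons, had 7.02 and 3.16. The loci nearest to Etnk1, Gm525, N4bp1, Mlec, and A530016L24Rik had TCF7L2 folds of 7.13 to 11.3 and FOXP1 folds of 3.16 to 4.30. TCF7L2 had a peak of 5.91 or more at all 10 loci at E18.5, and FOXP1 at A530016L24Rik alone, with 4.68. A TCF/LEF core lay in the TCF7L2 summit window of 5 of the 10.

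Loci that leaned to FOXP1 were led by the Gm11992 promoter, with 13.5 for FOXP1 and 3.27 for TCF7L2 at E15.5, then 23.2 and 4.71 at E18.5. An intergenic locus 250618 bp from Ccdc54 had 30.6 and 3.79, and 45.7 and 3.61 at E18.5. A locus in the Slc39a8 gene, of a metal ion transporter, had 10.6 and 3.16, and 20 and 4.38, and was the only one of the 10 with a forkhead core under the FOXP1 summit. An intron nearest to Gcg had 13.3 and 3.47, and 20.1 and 2.85. The promoter of Mrpl16 and the starts of Vps41 and Rpp30, genes of mitochondrial translation, vesicle traffic, and RNase P, had FOXP1 folds of 28.7, 12.2, and 10.9. Loci nearest to Nfatc4 and Btn1a1 had 19.6 and 18.9. FOXP1 ranked higher at E18.5 at all 10 loci, by 49.0 to 99.3 points.

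The TCF/LEF core was most frequent at the loci that leaned to TCF7L2. It was present in the 200 bp window around the TCF7L2 summit at 26 of the 199 loci (13.1%, 95% CI 9.1 to 18), at 4.30% of 2024 loci with differences of -50 to -25, and at 1.46% (0.401 to 5.17) of the 137 loci that leaned to FOXP1, against 2.31% of 125891 TSS windows of the same length. Among distal loci alone it was found at 21 of 146 (14.4%, 9.60 to 21.0). Distal loci with differences of -25 to 0 had it at 3.46% and those of 0 to 25 at 2.54%. The window around the FOXP1 summit of the same 199 loci held it at 7.54%. The E-box CATCTG, the core of the E-protein also called TCF4, was found at 23.1% of the 199 loci and 24.8% of the 137, and at 18.8% of TCF7L2 peaks without FOXP1 against 25.4% of FOXP1 peaks without TCF7L2, with 12.1% of TSS windows. The TCF/LEF core thus differed between the ends and CATCTG did not beyond its counting intervals of 17.8 to 29.4 and 18.3 to 32.7. At distal loci with both, however, CATCTG at the TCF7L2 summit went with TCF7L2 height from 25.8% at a fold of 3 to 4 through 31.9% and 37.4% to 41.6% of the loci at 10 to 20, and the TCF/LEF core from 3.03% to 5.94%, so these letters do not settle which factor the antibody met.

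Between the ends the forkhead core moved the other way and less. It lay in the window around the FOXP1 summit at 7 of the 137 loci that leaned to FOXP1 (5.11%, 95% CI 2.50 to 10.2), at 3.32% (2.62 to 4.20) of 2017 loci with differences of 25 to 50, and at none of the 199 that leaned to TCF7L2, which allows a share of up to 1.89%. TSS windows held it at 1.93%. Between the single classes it was found at 3.46% (3.27 to 3.65) of FOXP1 peaks without TCF7L2 and 1.92% (1.42 to 2.59) of TCF7L2 peaks without FOXP1, and the TCF/LEF core at 2.78% (2.62 to 2.96) and 4.07% (3.31 to 5.0). The last value became 9.38% with a -log10 p of at least 15 in both lists and 2.76% with summits within 200 bp in place of overlap. Both cores are rich in A and T, and the median GC content of the windows around the TCF7L2 summit was 49.5% at the FOXP1 end and 57.5% at the TCF7L2 end. The part of base composition in the shares of the cores was not tested.

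At TCF7L2 peaks without FOXP1 the TCF/LEF core went with height, from 3.37% below a fold of 3 and 3.66% at 3 to 4 to 8.48% of 165 peaks at 4 to 6. At FOXP1 peaks without TCF7L2 it went from 3.06% to 2.03% over the bins up to 10. The forkhead core at these FOXP1 peaks went from 3.17% to 3.78% over the same bins.

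The very highest FOXP1 peaks carried ETS cores. At 468 loci with both, FOXP1 reached a fold of 20 or more, and 97% of them were proximal. The ETS core lay in the window around the FOXP1 summit at 44.2% of these loci (95% CI 39.8 to 48.8), at 16.7% (15.8 to 17.6) of the 6604 loci with a fold of 10 to 20, and at 2.10% of those at 4 to 6, with 6.55% of TSS windows. The TCF7L2 height did not follow that of FOXP1: its median fold was 7.65 at the 468 loci and 7.34 at the 6604. At E18.5 the median FOXP1 fold was 11.4 at the 468 and 9.83 at the 6604, where it had a peak. At proximal loci the ETS share at the TCF7L2 summit was 3.37% for TCF7L2 folds of 3 to 4 and 9.36% for 4 to 6. It was 13.8% (12.9 to 14.7) for 6 to 10, 8.73% (6.77 to 11.2) for 10 to 20, and 22.2% (6.32 to 54.7) of the 9 loci above. The forkhead core was found at 2.78% (1.63 to 4.69) of the 468 loci. Among distal loci with both it rose with FOXP1 height, from 2.93% at 4 to 6 to 5.68% (3.98 to 8.03) of 511 loci at 10 to 20, and CATCTG from 29.4% to 36.6%.

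**Figure D5:**
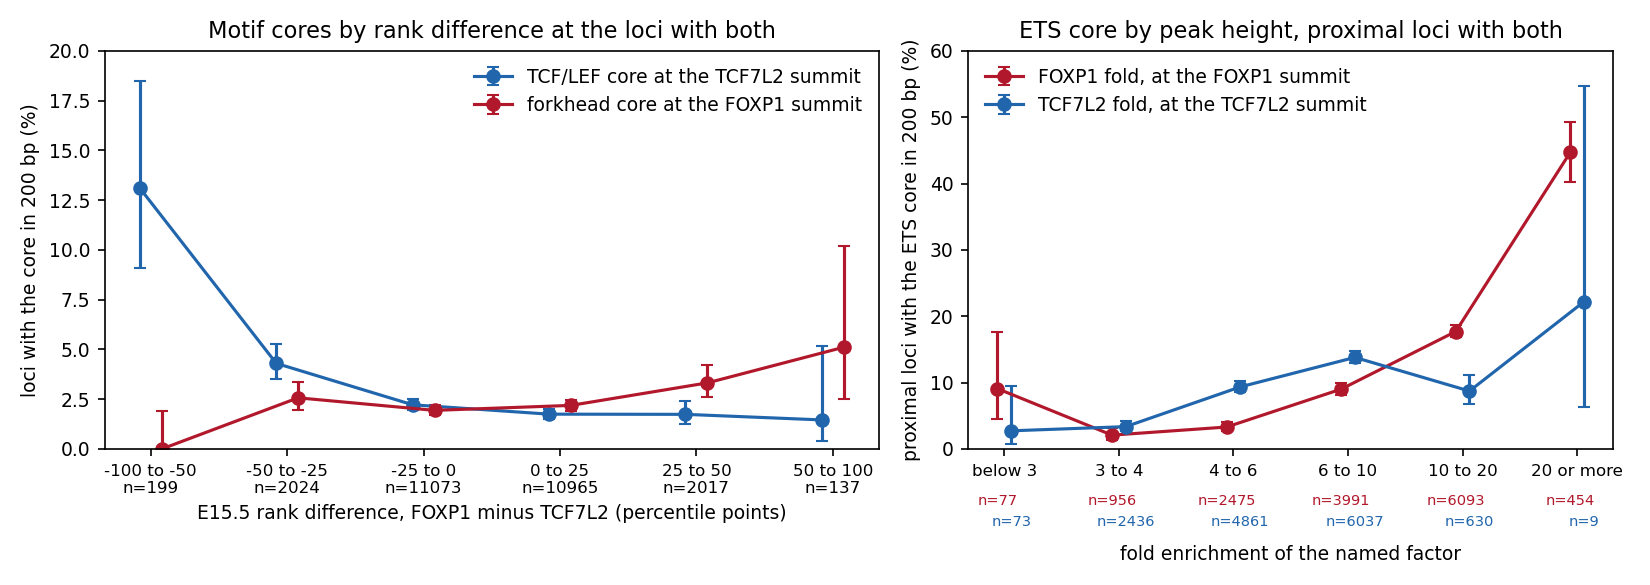
Left, the share of loci with both that hold the TCF/LEF core at the TCF7L2 summit (blue) or the forkhead core at the FOXP1 summit (red), in percent, by bins of the E15.5 rank difference. Right, the share of proximal loci with both that hold the ETS core at the summit, by the fold enrichment of FOXP1 (red) or TCF7L2 (blue). Error bars are 95% Wilson intervals, and the values reach 13.1% for the TCF/LEF core and 44.7% for the ETS core.

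Of the 5 loci at which both stood highest, 4 were promoters and 1 was intergenic. Kmt2a, a histone methyltransferase gene, had 44.9 for FOXP1 and 15 for TCF7L2 at E15.5, then 15.3 and 17.2 at E18.5. Arhgap1 had 43.9 and 15, Uspl1 45.4 and 13.6, and Utp3 42.1 and 12.8, and all 3 were promoter summits within 164 bp of the TSS for FOXP1. An intergenic locus of 5061 bp, 55814 bp from Ezh2, had 32.7 and 17.4, and FOXP1 stood at 46.5 at E18.5. FOXP1 had the higher fold at all 5 at E15.5.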

How the data were processed

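ChIP-seq peaks of FOXP1, TCF7L2, and ARID1B in E15.5 and E18.5 cortex were used. The authors aligned reads with BWA 0.7.15, kept those of mapping quality 30 or more with SAMtools, merged the 2 replicates, and called peaks against merged input with MACS2 2.2.7 (constant background, extension of 200 bp, q of 0.01). The deposited lists give fold enrichment, a ratio to that background, and the -log10 of p- and q-values, which the authors' peak caller wrote. Merged calls carry no replicate spread. Backgrounds and depths were recovered from the fold and p columns.

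Peaks on chromosomes 1 to 19 were compared by overlap in Python 3.11.15 with pandas 2.3.3, after tests on simulated data. TSSs came from GENCODE vM21 and sequences from RefSeq's GRCm38.p6. Genes were named by rule: the 10 highest peaks of each single class, the 10 loci of largest rank difference in each direction, the 5 highest shared loci, the 5 genes with most distal single-class peaks, the promoters with 1 TR in the gene lists, and the Foxp and TCF/LEF genes. Other list genes, such as Axin2, Sp8, Hes1, Scn2a, and Lrp6, were named after their values were seen. Some genes under the rule are not reported here. Members and lists were chosen with earlier results of these data known. Alternatives covered the threshold, overlap, list length, promoter, and window.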

Additional observations from a re-analysis of the deposited data

Results flagged for a closer look

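Peaks outside chromosomes 1 to 19 were not used in the comparison. Chromosome X held 760 FOXP1 peaks, the highest at a fold of 26.2, and 398 TCF7L2 peaks, the highest at 11.4. Of these, 48.8% of the FOXP1 peaks (371 of 760, 95% CI 45.3 to 52.4) and 96.2% of the TCF7L2 peaks (383 of 398, 93.9 to 97.7) overlapped a peak of the other TR. The mitochondrial genome held 2 FOXP1 peaks, the highest at 50.8, and 3 TCF7L2 peaks, the highest at 29.8.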

How the results depend on the processing

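No paired analysis was possible because each list is 1 set of peaks from merged replicates and no result comes from a test. Of 74 recomputed values for 12 results, 32 stayed within the limits set for a move and 42 did not. With a -log10 p of at least 15 in both lists, FOXP1 peaks without TCF7L2 numbered 13511, TCF7L2 peaks without FOXP1 405, and loci with both 11604. Their proximal shares were 25.5%, 28.9%, and 80.6%. Genes with FOXP1 alone numbered 2128 and with TCF7L2 alone 57, loci past 50 points 323 and 344, and the forkhead and TCF/LEF cores were at 3.18% and 9.38%. With lists of equal length the single classes held 9964 and 6407 peaks and 416 and 474 genes, so TCF7L2 alone was then the more frequent gene class. The proximal shares were then 10.8% for FOXP1 alone and 58.0% for both, and the forkhead core was at 3.86%. With the limit set on the named list alone, the classes held 5211 and 53 peaks and 264 and 4 genes, with proximal shares of 10.4% and 24.5% and cores at 4.07% and 9.43%. With summits within 200 bp in place of overlap, TCF7L2 peaks without FOXP1 numbered 10103, the proximal shares were 18.2%, 45.2%, and 52.4%, and the cores were at 3.24% and 2.76%. An overlap of 50% of the shorter peak gave a proximal share of 13.7% for FOXP1 alone. A promoter of 1000 bp on either side gave 14.0%, 31.8%, and 54.1%, and coding TSSs only gave 6.89%, 14.8%, and 46.3%. A window of 100 bp gave cores at 1.80% and 2.48%. Alternatives on the lowest fold and on repeats were chosen after seeing the data and moved no value. The cause of these moves was not tested.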

Other observations

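Among gene families by symbol, chosen after their values were seen, the 39 autosomal Hox genes were the family with most promoters of TCF7L2 alone. Of these promoters, 15 had both TRs, 5 had FOXP1 alone, 7 had TCF7L2 alone, and 12 had neither, where 0.490% of all genes had TCF7L2 alone. Hox genes pattern the body axis behind the forebrain. Of 1128 olfactory receptor (Olfr) promoters, 1124 had neither TR.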
